A study of Mus musculus with 12 samples.

Results

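Angptl2, Il17re and Pla2r1 are 3 genes that stood far below their control level in cultured Myc-CaP cells treated with YJ1206. Myc-CaP is a cell line from a prostate carcinoma of a mouse with a MYC transgene driven by a prostate promoter, and YJ1206 is an orally active degrader of the transcription kinases CDK12 and CDK13. The 3 genes were selected on the cell comparison itself. Among genes with an adjusted p under 0.05, a mean of at least 5 CPM (counts scaled to the size of the library) over the 6 cell libraries and no overlap between groups, they took places 2, 3 and 4 in the order of the log2 fold change. They are 3 of the 40077 genes listed for the cells and 3 of the 34508 listed for the tumors, and all 3 passed the filter on low counts in both experiments. Because the cell values chose the genes, these values are described here without a test. The tumors were not used in the choice, and the genes are tested there.

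The 12 RNA sequencing libraries fall into 4 groups of 3. Cells received DMSO, the solvent, or YJ1206 at 1 μM for 24 hours. Subcutaneous Myc-CaP tumors grew in male FVB mice, dosed orally with vehicle or with YJ1206. The study's general animal methods give 100 mg/kg, 3 times a week. For the sequenced tumors, the length of dosing and the time from last dose to collection are not given in the sources used here. Myc-CaP is 1 line, FVB is an immunocompetent strain, and the labels give neither the age of the mice nor which culture or animal each library came from. The study's methods state in general that replicates were biological and independent. Total estimated counts were 13936902 to 18519926 per cell library and 15391544 to 26928365 per tumor library. The control and treated cell libraries carry separate runs of library numbers, so a preparation batch and the treatment cannot be told apart in cells.

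Several facts of the libraries touch the results. Of 5 epithelial markers, Krt19 was at 113 to 120 CPM in DMSO and 182 to 192 CPM in YJ1206-treated cells. Krt8 was at 2.77 to 3.15 CPM in DMSO and 31.8 to 33.4 CPM in YJ1206-treated cells. Epcam, by contrast, was at 0 counts in all 6 cell libraries, and Cdh1 and Krt18 stayed under 1 CPM. The cells thus lacked several defining epithelial transcripts. The mRNA of the degrader's targets does not check the labels, since YJ1206 acts on the proteins: Cdk12 was at 119 to 125 CPM in DMSO and 180 to 185 CPM in YJ1206-treated cells. Among tumor genes that differed at least 2-fold between libraries 1 and 2 of a group, library 3 lay between them for 99.1% of 425 genes in vehicle tumors and for 98.9% of 176 genes in YJ1206 tumors. Whether library 3 is a tumor of its own is uncertain, and tumor results are given also for libraries 1 and 2 alone.

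Angptl2 encodes angiopoietin-like 2, a secreted glycoprotein that signals through integrins and is known from inflamed tissue, fat and tumor stroma. Il17re encodes the subunit that pairs with IL-17RA to bind IL-17C, a cytokine made by epithelial cells that acts on epithelial cells. Pla2r1 encodes a large transmembrane receptor of the mannose receptor family, which binds secreted phospholipase A2 enzymes and has been linked to cellular senescence. The 3 proteins belong to separate pathways. CDK12 and CDK13 phosphorylate RNA polymerase II during elongation, and loss of CDK12 activity is known to lower transcripts of many long genes.

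The gene models of the 3 genes differed in size (GENCODE vM21, GRCm38). Angptl2 lies on chromosome 2 at 33216069 to 33247717 on the plus strand, with a span of 31.6 kb. Its longest coding transcript has 5 exons and 3339 bases. Il17re lies on chromosome 6 at 113458484 to 113470758 on the plus strand, with a span of 12.3 kb, 15 exons and 2940 bases. Pla2r1 lies on chromosome 2 at 60417543 to 60553308 on the minus strand, with a span of 135.8 kb, 30 exons and 7112 bases. Among 11040 protein-coding genes tested in cells, with a median span of 23.4 kb, Pla2r1 was at the 92.8 percentile of span, Angptl2 at the 60.4 percentile and Il17re at the 30.0 percentile. Large decreases were thus found in a long, a middling and a shorter gene. The sequences just before the annotated starts are shown so that their letters can be compared; the alike size of the cell decreases follows from the choice of the genes. They are RefSeq sequences of GRCm38.p6 that end at the start listed with them, read 5′ to 3′ on the strand of the gene. For Angptl2 the listed start lies upstream of the GENCODE start and for Il17re downstream of it. The RefSeq gene spans used to find the nearest genes give other starts for all 3 genes. Capitals mark matches to the GC box, GGGCGG or CCGCCC on the other strand. The window of Angptl2 is chr2:33215711-33215960 and that of Pla2r1 is chr2:60553309-60553558, each 250 bases. For Il17re the last 30 bases, chr6:113458741-113458770, are given, since a longer Il17re transcript of the annotation starts upstream. All 250 bases measured for Il17re lie inside the GENCODE gene, which starts at 113458484. Its GC, CpG and motif values below are thus not those of sequence upstream of that gene.
Angptl2: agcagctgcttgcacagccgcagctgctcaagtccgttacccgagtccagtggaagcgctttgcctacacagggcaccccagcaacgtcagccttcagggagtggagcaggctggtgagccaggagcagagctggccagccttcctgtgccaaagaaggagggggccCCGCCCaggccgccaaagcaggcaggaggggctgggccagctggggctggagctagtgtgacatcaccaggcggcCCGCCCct
Il17re: caaggaggagcttcggggcagggtggatct
Pla2r1: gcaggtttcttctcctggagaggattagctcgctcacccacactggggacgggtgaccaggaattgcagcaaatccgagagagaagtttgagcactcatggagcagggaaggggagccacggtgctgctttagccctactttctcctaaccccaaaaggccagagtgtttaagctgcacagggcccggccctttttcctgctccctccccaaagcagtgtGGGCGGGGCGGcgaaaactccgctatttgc
The sequences were not aligned, and only their letter content and some short motifs were compared. GC content over 250 bases was 66.8% for Angptl2, 57.6% for Pla2r1 and 52.4% for Il17re, beside a median of 52.0% over 27025 windows of this length. Angptl2 and Pla2r1 each had 9 CpG dinucleotides and Il17re had 2, where the median window had 6. The GC box was found in Angptl2, starting 83 and 8 bases before the listed start, and in Pla2r1 as overlapping matches 30 and 25 bases before its listed start. It was found in 32.9% of all windows. None of the 3 windows held TATAAA (13.0% of all windows), CCAAT (34.5%), the E-box CACGTG (6.05%) or the AP-1 letters TGANTCA (6.87%), each searched on both strands.

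In cultured cells all 3 genes were lower with YJ1206, from different starting levels. The factors were nearly the same, which follows from the choice of adjacent places in the order. Angptl2 was at 33.0, 39.1 and 38.7 CPM in the DMSO libraries, from 644, 758 and 768 estimated counts. In YJ1206-treated cells it was at 3.65, 2.79 and 3.00 CPM, from 51, 37 and 39 counts. The groups were far apart, and the lowest control library was above the highest treated one. The log2 fold change was -3.55 (SE 0.116), an 11.7-fold difference.

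Il17re was at 13.8, 13.0 and 13.2 CPM in the DMSO libraries, from 251 to 269 counts, with little spread. It was at 1.22, 1.58 and 0.769 CPM in the treated libraries, from 17, 21 and 10 counts, so the treated values rest on few reads. This made a log2 fold change of -3.47 (SE 0.176), an 11.1-fold difference.

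Pla2r1 was the lowest of the 3, at 9.75, 10.1 and 9.02 CPM in the DMSO libraries from 179 to 196.1 counts. It was at 1.29, 0.830 and 0.461 CPM in the treated libraries, from 18, 11 and 6 counts. Transcript was still counted in every treated library of each gene, so none was absent. Pla2r1 had a log2 fold change of -3.46 (SE 0.216), an 11-fold difference. By the fitted fold change, the treated level was 8.56% of control for Angptl2, 9.01% for Il17re and 9.1% for Pla2r1. The choice of the genes fixes the direction, the separation of the groups and the likeness of the 3 factors. Over all 11826 genes tested in cells, 76.1% passed the adjusted p in either direction, 38.3% passed it as lower, and 77.5% had groups that did not overlap.

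**Figure D1:**
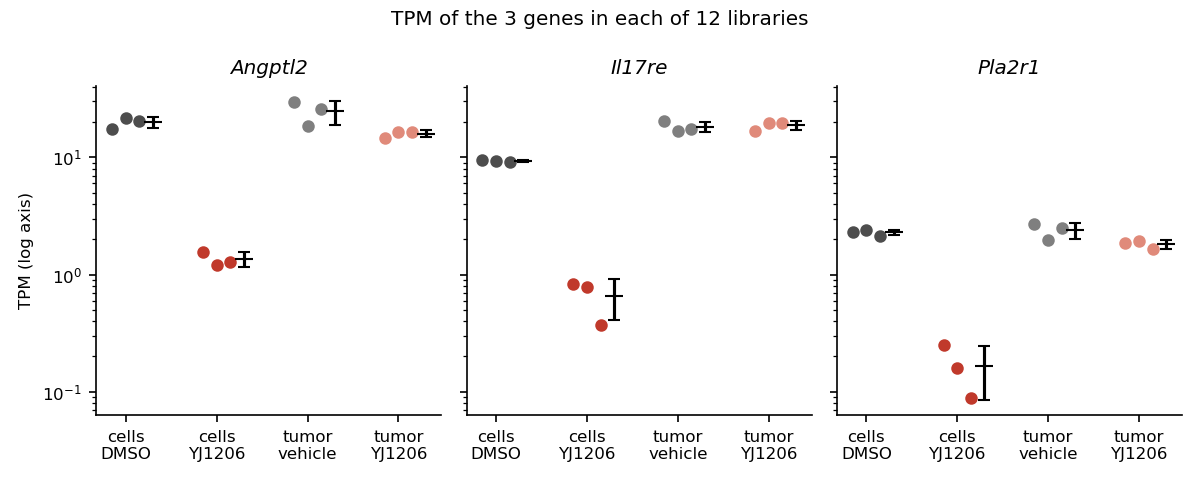
TPM on a log axis for each gene (panels) in every library, with 3 points per group and, beside them, the mean with SD as bars. The cell libraries with YJ1206 lie far below the other 9 in each panel, while vehicle and YJ1206 tumors lie close to each other.

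Per unit length, the levels of the 3 genes kept their order in cells. In TPM, the share of transcripts scaled for length, DMSO cells held 19.9 ± 2.13 for Angptl2, 9.32 ± 0.163 for Il17re and 2.29 ± 0.121 for Pla2r1 (SD, n = 3). These levels were at the 49.80, 32.10 and 14.90 percentiles of the genes tested, so Angptl2 was a gene of middling level and the others were lower. With YJ1206 the TPM were 1.35 ± 0.195, 0.662 ± 0.251 and 0.166 ± 0.0811 (SD, n = 3), at the 12.60, 7.76 and 1.65 percentiles.

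The threshold of 5 CPM matters for Pla2r1, whose mean over the 6 cell libraries was 5.24 CPM. In all, 3650 genes met the conditions that the order was drawn from. The largest decrease was that of Lncenc1, a long noncoding RNA gene, at 26.2 CPM in DMSO and 2.21 CPM in YJ1206-treated cells (log2 fold change -3.56), which is listed for the cells and not for the tumors. Just outside the 4 were Gm50321 (-3.15) and Nr1h5 (-3.02), the latter a nuclear receptor gene of the FXR group. Below the threshold, 10 genes had a decrease as large as that of Pla2r1, the nearest in level being Elmod1 (-3.71, mean 4.43 CPM) and Fer1l4 (-3.54, mean 3.48 CPM).

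**Figure D2:**
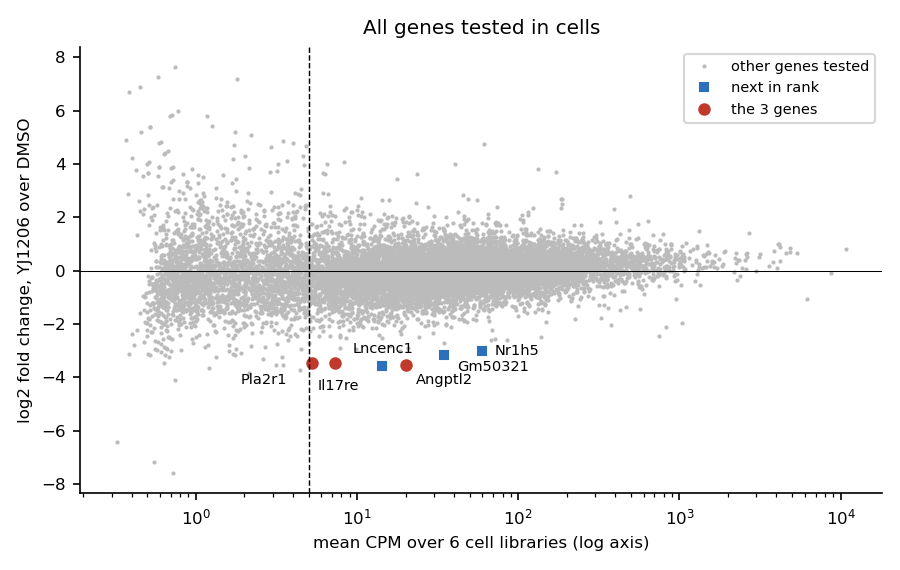
Each point is 1 of the 11826 genes tested in cells, with its mean CPM over 6 libraries on a log axis and its fitted log2 fold change of YJ1206 over DMSO. The dashed line is 5 CPM; Pla2r1 sits just to its right, and the 3 genes lie with Lncenc1 at the lower edge of the genes above it.

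In tumors the same 3 genes did not stand apart. Angptl2 was lower in YJ1206 tumors, Il17re differed by less than its error, and Pla2r1 was lower by an amount that missed the threshold. In bulk tumor RNA, fewer cells of a type and less RNA per cell cannot be told apart. Angptl2 was at 58.5, 37.5 and 50.7 CPM in vehicle libraries 1, 2 and 3, from 1297, 1001 and 785 counts. It was at 30.5, 35.4 and 34.5 CPM in YJ1206 libraries 1, 2 and 3, from 558, 790 and 670 counts. The groups did not overlap, but vehicle library 2 exceeded YJ1206 library 2 by little.

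The log2 fold change of Angptl2 in tumors was -0.55 (SE 0.159, 95% interval -0.918 to -0.174), or 1.46-fold lower, with an adjusted p of 0.0409 by edgeR over all genes tested. This call is fragile. It was lost in 5 of the 6 fits that left out 1 library, those without vehicle library 1, vehicle library 3, YJ1206 library 1, YJ1206 library 2 or YJ1206 library 3, with adjusted p of 0.0857, 0.127, 0.124, 0.0895 and 0.114. Without vehicle library 2 the log2 fold change was -0.707 with an adjusted p of 0.00135. Libraries 1 and 2 alone gave -0.545 with an adjusted p of 0.295.

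Il17re was at 31.4, 26.3 and 27.7 CPM in the vehicle libraries and at 25.5, 31.3 and 30.8 CPM in the YJ1206 libraries, from 428 to 702 counts. The groups overlapped over most of their range. Their log2 fold change was 0.0368 (SE 0.112, 95% interval -0.225 to 0.299) with an adjusted p of 0.842 by edgeR. The sign turned with the library left out, and libraries 1 and 2 alone gave -0.0247.

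Pla2r1 was at 11.6, 8.85 and 11.0 CPM in the vehicle libraries and at 8.52, 9.13 and 7.63 CPM in the YJ1206 libraries, from 147.8 to 258 counts. Vehicle library 2 fell within the YJ1206 range. A log2 fold change of -0.312 (SE 0.143, 95% interval -0.646 to 0.022) had an adjusted p of 0.149 and an unadjusted p of 0.0631 by edgeR. Without vehicle library 2 it was -0.424 with an adjusted p of 0.0356, and the other 5 fits that left out a library did not pass.

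Thus 1 of the 3 genes passed the test in tumors, and the same gene alone had groups that did not overlap. Over all 15558 genes tested in tumors, 26.8% passed in either direction, 14.9% passed as lower, and 44.6% had groups that did not overlap. The count for the 3 genes is near these shares. Of the other genes in the first 10 places of the order in cells, 5 were tested in tumors, and 4 fell there by edgeR. These were Nr1h5 (log2 fold change -1.26, adjusted p 0.00333), Chst1 (-1.02, adjusted p 0.0391), Cdkn3 (-1.92, adjusted p 0.00628) and Lgr6 (-0.594, adjusted p 0.00986), whereas Trpm4 (0.123, adjusted p 0.256) did not pass. Chst1, Cdkn3, Lgr6 and Trpm4 were added after their values were seen.

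**Figure D3:**
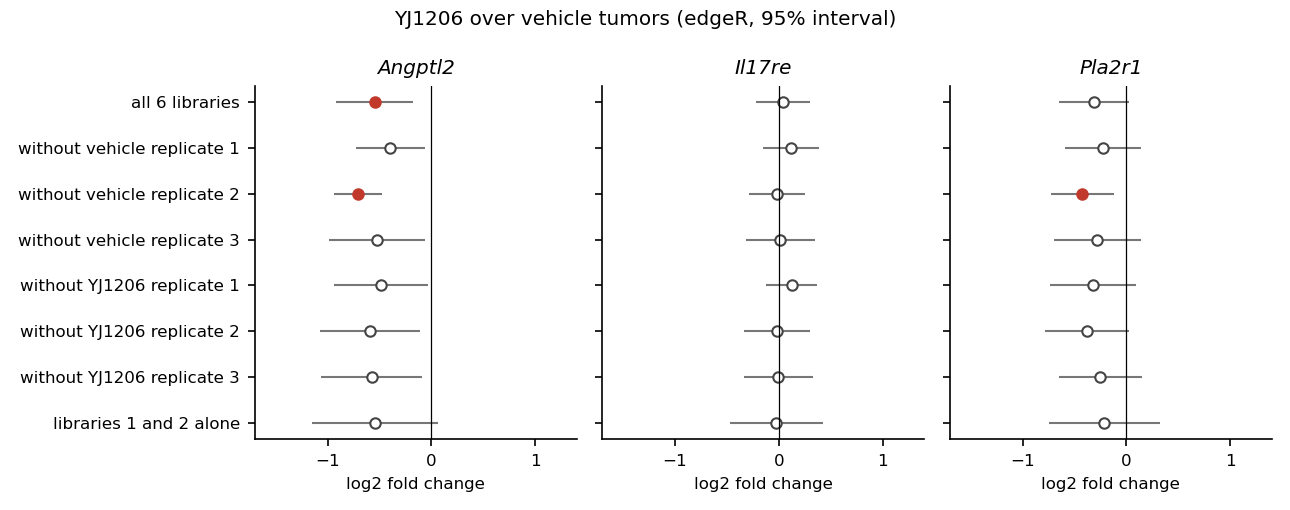
Log2 fold change of YJ1206 over vehicle tumors with its 95% interval for each gene (panels), from all 6 libraries, without each library in turn, and from libraries 1 and 2 alone. Filled points have an adjusted p under 0.05: Angptl2 passes with all libraries and without vehicle library 2, Pla2r1 without vehicle library 2, and Il17re in no fit.

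Across the 4 groups, the order of the levels differed between the genes. The TPM of cells and tumors come from separate tables, in which genes listed only for the cells take 1.13 to 3.85% of the cell TPM, so levels set across them carry no test and depend on the scale. Angptl2 was highest in vehicle tumors (24.7 ± 5.66 TPM), followed by DMSO cells (19.9 ± 2.13), YJ1206 tumors (15.9 ± 1.06) and YJ1206-treated cells (SD, n = 3 each). Vehicle tumors and DMSO cells overlapped, and on CPM scaled jointly over all 12 libraries DMSO cells came first (44.5 against 42). Il17re was highest in YJ1206 tumors (18.8 ± 1.59 TPM) and vehicle tumors (18.2 ± 1.84), which overlapped, and its level in DMSO cells was 9.32 ± 0.163 TPM. Pla2r1 was at 2.39 ± 0.378 TPM in vehicle tumors and 2.29 ± 0.121 in DMSO cells, which overlapped, and at 1.82 ± 0.155 in YJ1206 tumors, whose highest library was below every DMSO library. On the jointly scaled CPM, DMSO cells (10.9 to 12.2) lay wholly above vehicle tumors (7.59 to 10.1) for Pla2r1. YJ1206-treated cells were last for each gene by a wide gap.

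The genes with the most similar pattern over the 12 libraries were found by Pearson r of log2(CPM + 1) among 13099 genes measured in both experiments. For Angptl2 these were Cep68 (r = 0.996), Eef1akmt4 (0.994) and Pitpnm1 (0.993). For Il17re they were Ndor1 (0.997), Grhl2 (0.994) and Slc25a27 (0.994). For Pla2r1 they were Cep68 (0.989), Myo9b (0.988) and Angptl2 itself (0.987). These r rest on 12 libraries in 4 groups that share batches and scaling, and for each gene named the treated cells were the lowest group. A high r does not mean a change of like size. Cep68 went from 57.7 to 27.2 CPM between DMSO and YJ1206-treated cells, a much smaller factor than that of Angptl2, and stood at 54.3 and 48.5 CPM in vehicle and YJ1206 tumors. Slc25a27, a mitochondrial carrier gene, was at 15.9 and 2.94 CPM in the cell groups and 25.5 and 22 CPM in the tumor groups.

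Markers of other cell types differed between the tumor libraries. Summed over 9 fibroblast markers, all present in every tumor library, the level was 2331, 773 and 1700 CPM in vehicle libraries 1, 2 and 3 and 540.6, 1297 and 1017 CPM in YJ1206 libraries 1, 2 and 3. Vehicle libraries 1 and 3 were the highest of the 6 both in this sum and in Angptl2. Within each group the order of the fibroblast sum was the order of Angptl2 and also of Il17re, whose groups overlapped, and with library 3 between the others for nearly all genes such an order carries little information. The sum of 5 skeletal muscle markers was 675.1, 16.28 and 412.7 CPM in vehicle libraries 1, 2 and 3 and 8.41 to 9.64 CPM in the YJ1206 libraries, and 4 of 4 muscle markers tested fell. Of the 9 fibroblast markers, 1 fell and none rose by edgeR. Their part in the difference of Angptl2 was not tested. Vehicle library 2 had the lowest muscle and fibroblast sums of the vehicle libraries. Its Angptl2 level was also the nearest of the vehicle libraries to those of the YJ1206 libraries. Likeness over all genes was not measured. In the cell libraries, by contrast, Col3a1, Dcn, Fap, Pdgfrb and Thy1 were at 0 counts and the fibroblast sum of 8.528 to 10.54 CPM was mostly Pdgfra. The DMSO and YJ1206 sums overlapped there.

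**Figure D4:**
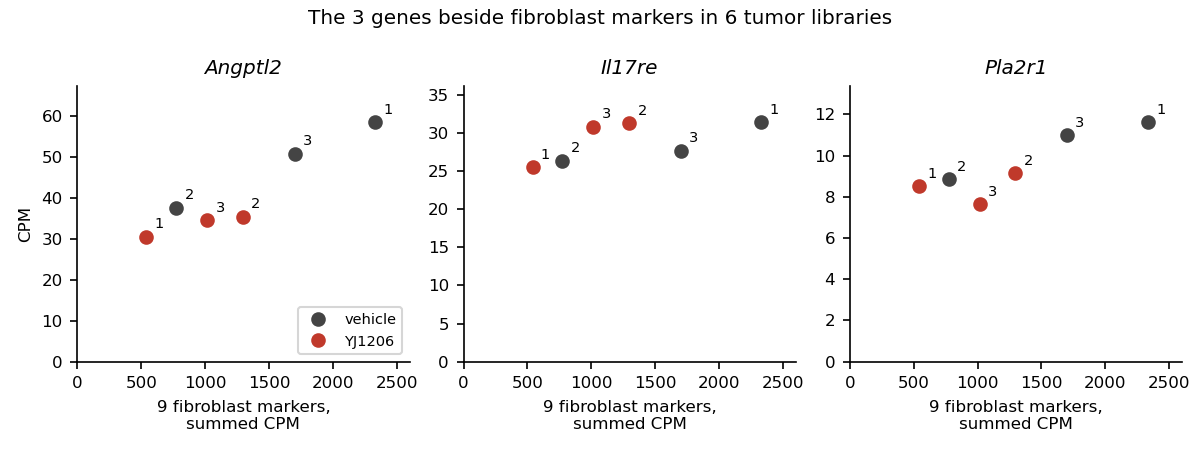
CPM of each gene (panels) against the summed CPM of 9 fibroblast markers in the 6 tumor libraries, with vehicle in grey, YJ1206 in red and the library number beside each point. For Angptl2, vehicle libraries 1 and 3 lie highest on both axes; Il17re spans a narrow range from 25.5 to 31.4 CPM.

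The other genes of each family show how much of the surrounding pathway was measured. The lists leave out the 3 genes themselves in cells and hold them in tumors, and all counts rest on edgeR over all genes. Around Angptl2, 14 other angiopoietins, angiopoietin-like proteins and their receptors were listed for cells. Of these, 4 passed the filter, 1 rose and 2 fell, beside 76.1% of all genes that passed in either direction. Angptl4, a secreted inhibitor of lipoprotein lipase, fell from 19.7 ± 1.44 to 13.9 ± 0.581 CPM (SD, n = 3). Itga5, the α5 integrin chain that takes part in binding of Angptl2, fell with a log2 fold change of -1.01 in cells and of -1.58 in tumors. Its partner Itgb1 rose slightly (0.206), a direction that turned on the TPM scale and was not called with total counts. In tumors 13 of 15 genes passed the filter, none rose and 3 fell, namely Angptl1, Angptl2 and Itga5, beside 26.8% of all genes that passed in either direction. Leaving out 1 library gave 1 to 6 genes that passed, with 6 without vehicle library 2 and 1 without vehicle library 3 or without any YJ1206 library. Tek and Tie1, the endothelial receptors of the angiopoietins, had log2 fold changes of 0.117 and 0.151 that did not pass. The list's median was -0.152 in cells, beside -0.0172 for all genes, and -0.00188 in tumors, beside 0.00914.

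Of the receptors of the IL-17 family, Il17ra, the shared chain with which Il17re pairs, was higher in treated cells. It rose from 21.4 ± 0.657 to 41.7 ± 3.79 CPM (SD, n = 3), with a log2 fold change of 0.961 and an adjusted p of 1.81e-12 by edgeR. Il17rc, the chain that binds IL-17A and IL-17F, fell from 19.6 ± 2.22 to 15.4 ± 2.26 CPM (log2 fold change -0.346, adjusted p 0.00375 by edgeR). On the TPM scale the decrease of Il17rc was not called. The decrease of Il17re itself is not set against these, since it was the ground for its choice. In tumors Il17ra (-0.0401) and Il17rc (0.178) did not pass. The ligand Il17c had at most 2 counts in any cell library and 3 in any tumor library, Il17a at most 1, and Il25 had 0 throughout.

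With these receptors and the ligands, the IL-17 list for cells held 33 other genes, of which 18 passed the filter, 8 rose and 6 fell, beside 76.1% of all genes that passed in either direction. Of 12 signaling genes, 4 rose, among them Tab2 (0.554) and Traf2 (0.559), and 5 fell, among them the adaptor Traf3ip2 (-0.389) and Traf6 (-0.366). All 3 target genes that passed the filter rose. The neutrophil chemokines Cxcl5 and Cxcl1 had log2 fold changes of 1.09 and 0.607, and Lcn2, which encodes the iron-binding protein lipocalin 2, went from 1 to 3 counts in DMSO libraries to 40 to 52 counts in treated ones. Cxcl1 was not called on the TPM scale. With total counts as the scale, 8 genes of the list rose and 9 fell. In tumors 27 of 34 genes passed the filter, 2 rose and 7 fell, beside 26.8% of all genes that passed in either direction. These 9 dropped to 2 without vehicle library 3 or without YJ1206 library 3, to 3 without YJ1206 library 2 and to 5 without YJ1206 library 1. Lcn2 rose there (2.3), whereas Cxcl1 (-0.962), Mmp3 (-2.39) and the signaling gene Nfkbiz (-0.413) fell. The list's median was 0.194 in cells and -0.0779 in tumors.

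Around Pla2r1, 28 of 29 other genes of the list were found for cells, and 11 passed the filter, with 3 that rose and 6 that fell, beside 76.1% of all genes that passed in either direction. With total counts as the scale, 2 rose and 7 fell. Of its relatives in the mannose receptor family, Ly75 was the only one that passed in cells, and it fell from 9.37 ± 0.613 to 2.66 ± 0.551 CPM (SD, n = 3). Mrc1 had 0 counts and Mrc2 at most 10. Cytosolic phospholipase Pla2g4a, which releases arachidonic acid, fell from 97.1 to 34.8 CPM, and Ptgs2, the inducible cyclooxygenase that uses it, fell from 350 to 101 CPM. Pla2g4c fell from 3.05 to 0.341 CPM. Pla2g4b had 14 to 47 counts in DMSO libraries and 0 in all treated ones, at least 6.46-fold lower against a floor of 3 counts per library. Lysosomal Pla2g15 rose (1.05). Of the secreted enzymes on the list, Pla2g12a alone passed the filter in cells, at 62.5 ± 0.829 and 62.9 ± 1.49 CPM. This level depends on the scale, as Pla2g12a was called lower with total counts (-0.18) and on log2(TPM + 1) (-0.346).

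In tumors 19 genes of the phospholipase list passed the filter, and 5 rose and 2 fell, beside 26.8% of all genes that passed in either direction. These 7 became 4 without vehicle library 3. Pla2g15 (0.732), Pla2g6 (0.594) and Ptgs1 (0.823), the constitutive cyclooxygenase, rose. Ptgs2 fell there too (-2.5), and Pla2g4a by 0.327 on the log2 scale. The receptors Ly75 (-0.379), Mrc1 (0.0484) and Mrc2 (0.774) did not pass. The list's median was -0.14 in cells and 0.291 in tumors. With libraries 1 and 2 alone, none of the genes of any of the 3 lists passed in tumors, and 1 gene of all those tested did, beside 3068 at an unadjusted p under 0.05.

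**Figure D5:**
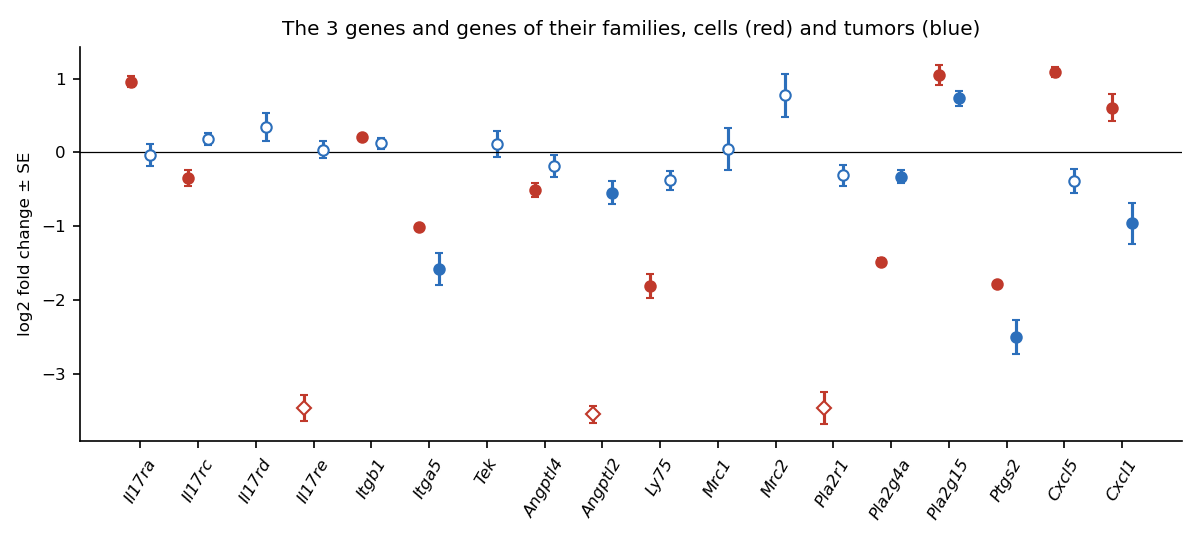
Log2 fold change with SE of YJ1206 over control in cells (red) and tumors (blue) for 18 genes. Filled circles passed the test, open circles did not, and open diamonds are the 3 genes in cells, which were chosen on those values; no point is drawn where counts were too few. The low place of the 3 diamonds follows from their choice. The 18 genes are only a part of the lists. Pla2g4b, not drawn, had a fitted cell log2 fold change of -7.58, with 0 counts in all treated libraries. The blue points of Il17re and Pla2r1 are open.

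The direction counts in cells depend on the scale. With TMM 4467 genes rose and 4528 fell, with total counts 3314 and 5876, and with log2(TPM + 1) 2534 and 6151, as the median of all genes moved from -0.0172 to -0.204 and -0.245. The decreases of the 3 genes are larger than this shift on each of these scales. Their choice by the size of the decrease fixed this, so it is no test of them.

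The 3 genes have 7 protein-coding genes that overlap them or lie nearest. Of these 7, 6 fell in cells by edgeR, beside 38.3% of all genes tested. With DESeq2 4 of the 7 fell, beside 3930 of 15549 genes tested. There Ralgps1 (adjusted p 0.0884) and Garnl3 (adjusted p 0.0848) no longer passed. Ly75 is the neighbor of Pla2r1, 34270 bases away on the same strand, and fell with a log2 fold change of -1.81 and an adjusted p of 6.69e-11 by edgeR. Itgb6, on the other side, fell by 1.44 on the log2 scale. An antisense noncoding gene, Gm13583, overlaps the start of Pla2r1 and is not among the genes analysed here. Angptl2 lies inside Ralgps1, a gene on the opposite strand, which fell from 8.48 ± 0.211 to 6.53 ± 0.267 CPM in cells (SD, n = 3, log2 fold change -0.376). In tumors Ralgps1 had a log2 fold change of 0.392 that did not pass, with a sign opposite to that of Angptl2. Whether counting used strand is not given in the sources used here, so reads of these overlapping genes could be shared. Il17rc starts 697 bases beyond the end of Il17re on the same strand, and its small decrease is given above. Jagn1, on the other side of Il17re, fell from 45.1 ± 1.41 to 23.7 ± 1.56 CPM in cells (SD, n = 3). Garnl3, beside Ralgps1, fell by 0.762 on the log2 scale and was not called in 5 of 13 alternatives, and Zbtb34 (-0.175) did not pass. None of the 7 passed in tumors.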

How the data were processed

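RNA sequencing was done on 6 Myc-CaP cell libraries and 6 tumor libraries, prepared with depletion of ribosomal RNA. Estimated counts and TPM per gene, in separate tables for cells and tumors, were deposited by the authors, who scaled the TPM for transcript length within each library. The submitters' notes name kallisto and GRCm38 (mm10); the version, annotation and use of strand are not given in the sources used here. Library labels name polyA RNA for the cells and total RNA for the tumors, while the protocol is the same. Groups and replicate numbers came from the labels, and doses from the methods.

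Estimated counts were rounded, since the test chosen was for counts. Cells and tumors were fitted separately in R 4.3.3 by edgeR 4.0.16 (filterByExpr, TMM, glmQLFit, glmQLFTest), with Benjamini-Hochberg adjustment over all genes tested and a threshold of 0.05. CPM are TMM-scaled. A floor of 3 counts is 0.162 to 0.215 CPM in the cell libraries, and covers counting error only. Chi-square per gene between replicates was 1.91 to 2.82 in cells and 3.54 to 46.7 in tumors, above sampling noise. No library was thus a plain copy of another, and each was counted. A library mixed from others would also differ from each of them, so this check cannot tell what tumor library 3 is. Same-numbered libraries of the cells did not vary together (correlations of -0.0289 to 0.0102), so numbers were not taken to pair. Alternatives were RLE factors, total counts, DESeq2 1.42.0, no filter, limma 3.58.1 on log2(TPM + 1) and log2(TPM + 0.1), each library left out, libraries 1 and 2 alone, and a replicate block. The scripts were tested on simulated data.

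The named genes are the 3 genes, those next to them in the order of cell decreases, members of 3 gene lists, the nearest genes on the chromosome and the 3 most similar in pattern. The genes and lists were chosen with earlier results of these data known. Of 6 lists of cell type markers, the endothelial sum was 127 to 142.6 CPM in vehicle and 147.3 to 167.2 CPM in YJ1206 tumors, the leukocyte sum 196.4 to 303.7 and 206.2 to 274.2, the epithelial sum 138.7 to 241.9 and 195.9 to 216.9, and the adipocyte sum 31.43 to 32.7 and 41.84 to 50.35; fibroblast and muscle sums stand with the results.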

Additional observations from a re-analysis of the deposited data

How the results depend on the processing

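In tumors, 4176 genes passed with all libraries, 1877 to 5724 when 1 library was left out, and 1 with libraries 1 and 2 alone (3068 at an unadjusted p under 0.05), a fit with fewer samples. The log2 fold change of Angptl2 in tumors ranged from -0.707 to -0.395 when a library was left out and was -0.545 with libraries 1 and 2 alone (adjusted p 0.295); it passed with RLE factors, total counts, DESeq2, no filter and both TPM scales. That of Il17re ranged from -0.0187 to 0.123 when a library was left out and was -0.0247 with libraries 1 and 2 alone, passing in none of its alternatives. That of Pla2r1 ranged from -0.424 to -0.228 when a library was left out, and passed only without vehicle library 2. The cause of these differences was not tested. Same-numbered tumor libraries had correlations of -0.0142 to 0.000765, so the number is only a name; with the replicate block, the value for Angptl2 was -0.526 (adjusted p 0.0861), 3477 genes passed in tumors and 8905 in cells. In cells, 8995 genes passed, and the count stayed within 1.5 times this under each alternative. The cell differences of the 3 genes shrank to -3.15, -2.65 and -1.5 on the log2(TPM + 1) scale, where the pseudocount of 1 is near the level of Pla2r1. The fit of the lists to libraries 1 and 2 alone was chosen after seeing the data.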
